A study of Mus musculus with 2 samples.

Results

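The genes described here encode the proteins of the cytosolic and of the mitochondrial ribosome. They were chosen by gene symbol from the deposited table: symbols that begin with Rpl or Rps and a digit, together with Rpsa, Rplp0, Rplp1 and Rplp2, formed the cytosolic class, and symbols that begin with Mrpl or Mrps and a digit formed the mitochondrial class. Pseudogenes and the Rps6k kinases were left out. The rule gave 161 genes of the 18724 rows in the table, 84 cytosolic and 77 mitochondrial. Rps19bp1 and Mrps36 match the naming rule although their products are not structural ribosomal proteins by name, and they were kept.

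RNA came from luminal epithelial cells of the normal mouse prostate at 18 weeks of age, sorted by flow cytometry on a histone H2B-GFP label. The label is diluted each time a cell divides, so cells that divide rarely keep it. There was 1 library of GFP-positive, label-retaining cells (L-GFP+) and 1 library of GFP-negative, non-label-retaining cells (L-GFP-). Neither the strain, the promoter that drives the label, the length of the chase and the surface markers of the sort nor the number of mice behind each library is given in the sources used here. With 1 library per group no test between groups could be made: every value compares these 2 libraries, and the 95% counting intervals (Clopper-Pearson) cover counting error only.

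The cytosolic ribosome makes nearly all of a cell's proteins, and its protein genes are among the most strongly expressed genes of any cell. The mitochondrial ribosome is a separate machine that makes the few proteins encoded in mitochondrial DNA, all of them parts of the respiratory chain, and its own proteins are encoded in the nucleus and imported. Messages for cytosolic ribosomal proteins start with a run of pyrimidines, the terminal oligopyrimidine tract, through which the growth kinase mTORC1 controls their translation.

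The libraries held 50689229 (label-retaining) and 48334265 (non-retaining) reads in the genes of the table. Of all rows, 17183 were measured, that is, had a mean normalised count of at least 10, and their median log2 ratio was -0.01. At 2-fold, 14.5% of these genes were higher in the label-retaining library and 19.4% were lower. Luminal markers were present in both libraries and took 5.30% of the label-retaining and 1.54% of the non-retaining reads, with Tgm4 the most abundant. The share of reads from 10 basal markers was 0.0711% against 0.807%, and each of the 10 was 2-fold lower or more in the GFP-positive cells. All 8 smooth muscle and all 4 red cell markers were also at least 2-fold lower there, and 8 of 8 seminal vesicle genes were higher, with Svs3a and Svs6 at 0 reads in the non-retaining library. Leukocyte markers were split: 8 of 12 were at least 2-fold lower, with Gzma at 0 reads, and 2 higher (Lyz2 and Cd52, the most abundant, with 6818 reads against 2160). The interval of Csf1r also lay above equality and that of Cd68 below it. Fibroblast markers were split too, and 3 of 7 were 2-fold lower (Dcn, the most abundant, had 4930 reads against 92262). The intervals of Col1a1, Col1a2, Col3a1 and Lum lay above equality. Of 7 endothelial markers 5 were 2-fold lower and 2 had intervals across equality. The part of these other cell types in the ribosomal protein values was not tested. In bulk samples fewer cells of a type and less RNA per cell cannot be told apart.

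To show what the promoters of the cytosolic class look like, the 30 bases around the start of transcription are printed for 8 members that carry a pyrimidine run there and for 3 members that were higher in the label-retaining library. Each is on the coding strand, 5′ to 3′, from 15 bases before to 15 bases after the start that RefSeq annotates on GRCm38.p6. Capitals mark the run of 8 or more C or T that holds or adjoins the start, as far as it falls in the window, and other runs are left in lower case. In Rps26, where no run reaches the start, they mark the one just after it, and Rpl10 and Rpl36al have none. Rps27l, also higher, carries a run within 20 bases of the start and is not printed. The windows are examples and do not compare lower with higher members. Cytosolic members with a run had a median log2 ratio of -0.41 and those without -0.40.
Rps27 (chr3:90213634-90213663, - strand): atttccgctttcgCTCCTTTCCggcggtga
Rps15a (chr7:118116133-118116162, - strand): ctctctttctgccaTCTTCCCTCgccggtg
Rpl35a (chr16:33056467-33056496, + strand): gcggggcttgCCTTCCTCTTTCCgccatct
Rplp2 (chr7:141447636-141447665, + strand): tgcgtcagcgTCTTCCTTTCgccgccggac
Rps6 (chr4:86857353-86857382, - strand): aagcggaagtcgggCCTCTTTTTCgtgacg
Rpl15 (chr14:18270972-18271001, - strand): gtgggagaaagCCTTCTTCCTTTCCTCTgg
Rpl35 (chr2:39005117-39005146, - strand): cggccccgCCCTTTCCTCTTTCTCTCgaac
Rpl28 (chr7:4792950-4792979, + strand): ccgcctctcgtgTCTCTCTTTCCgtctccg
Rps26 (chr10:128626492-128626521, - strand): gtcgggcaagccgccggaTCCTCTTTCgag
Rpl10 (chrX:74270801-74270830, + strand): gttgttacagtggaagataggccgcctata
Rpl36al (chr12:69184053-69184082, - strand): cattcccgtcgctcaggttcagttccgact

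RefSeq promoters (250 bases before to 50 after the start) matched 64 of the 84 cytosolic and 68 of the 77 mitochondrial genes. A run of 8 or more C or T on the coding strand within 20 bases of the start was found in 32 cytosolic (50% of those matched) and 16 mitochondrial promoters (23.5%), against 23.7% of all 27025 promoters and 24.1% of the 11818 that belonged to measured genes. The motif CCGGAAG, the core bound by ETS-family factors, was searched on both strands. It stood in 39.1% of cytosolic and 36.8% of mitochondrial promoters, against 18.0% of promoters of measured genes and 9.93% of all promoters. The palindrome that the factor NRF1 binds was searched on both strands and was in 9.38% of cytosolic, 19.1% of mitochondrial and 10.2% of measured promoters. AAGATGGC, a YY1 core, was searched likewise and was in 9.38%, 17.6% and 4.71%. TATAAA, searched on both strands, was in 10.9%, 7.35% and 9.50%. None of these motifs contains another, although matches to different motifs may share bases.

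The mitochondrial windows below show the CCGGAAG motif in members that were higher (Mrps18a, Mrpl34, Mrpl43, Mrpl27, Mrps27) or lower (Mrps22) in the label-retaining library under the deposited scaling, and in Mrps18c, whose interval lay across equality. Each is 40 bases of the coding strand upstream of the RefSeq start, at differing distances from it. The windows of Mrpl43 and Mrps22 end at offset 0, directly before the start. The others end at offsets of -2 (Mrps18a), -13 (Mrpl34), -24 (Mrps27), -31 (Mrpl27) and -132 (Mrps18c). Capitals mark the motif or its reverse complement, CTTCCGG.
Mrps18a (chr17:46110962-46111001, + strand): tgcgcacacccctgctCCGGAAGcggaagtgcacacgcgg
Mrpl34 (chr8:71464873-71464912, + strand): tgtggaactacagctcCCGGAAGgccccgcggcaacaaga
Mrpl43 (chr19:45006443-45006482, - strand): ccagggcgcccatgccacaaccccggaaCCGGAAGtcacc
Mrpl27 (chr11:94653720-94653759, + strand): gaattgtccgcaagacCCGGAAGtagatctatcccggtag
Mrps27 (chr13:99344722-99344761, + strand): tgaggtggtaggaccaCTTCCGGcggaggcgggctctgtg
Mrps18c (chr5:100798587-100798626, + strand): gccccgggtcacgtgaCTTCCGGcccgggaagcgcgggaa
Mrps22 (chr9:98601680-98601719, - strand): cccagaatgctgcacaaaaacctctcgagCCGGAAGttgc

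The ribosomal proteins of the cytosol were mostly lower in the label-retaining library, by a small amount per gene. Of the 84 genes 83 were measured, and Rpl3l, a striated muscle copy of Rpl3 with 7 and 11 reads, was not. Together the class took 2.64% of all label-retaining reads and 4.01% of all non-retaining reads. The median log2 ratio (label-retaining over non-retaining) was -0.40, a level 1.32-fold lower, with quartiles of -0.59 and -0.21 and a range of -1.21 to 0.69. This direction held under all 6 scalings of the libraries that were computed.

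At 2-fold, 0 cytosolic members were higher, where 14.5% of all measured genes were, and 1 was lower, where 19.4% were. At 1.5-fold, 1 was higher against a background of 24.2% and 22 were lower against 26.8%. By the counting interval alone, 6 members lay above equality (38.2% of measured genes did), 76 below (38.5% did) and 1 across it. Single genes were deeply read, and the median half-width of the interval was 0.03 on the log2 scale for cytosolic and 0.15 for mitochondrial members. Among 2182 other genes in the same range of abundance (the 10th to 90th percentile of the class) the median was 0.01, with 46.7% of intervals below equality, compared with 91.6% in the class.

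The proteins of the mitochondrial ribosome lay on the other side of the median of all genes. All 77 were measured. Their median log2 ratio was 0.32, a level 1.25-fold higher in the label-retaining library under the deposited scaling, with quartiles of 0.02 and 0.53 and a range of -0.83 to 1.05. That direction was reversed, to -0.44, when the libraries were scaled so that the luminal keratins Krt8 and Krt18 were equal. The scaling lowered the median of all measured genes to -0.78, so that relative to all genes the class median was 0.34 higher. The class took 0.124% of all label-retaining reads and 0.115% of all non-retaining reads.

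At 2-fold, 3 mitochondrial members were higher (Mrps18a, Mrps18b and Mrpl57) and 0 were lower, both under the background shares of 14.5% and 19.4%. At 1.5-fold the counts were 17 and 3, against background shares of 24.2% and 26.8%. The counting interval lay above equality for 48, below it for 9 and across it for 20. These 48 are 62.3% of the class, against 45.8% of 3935 other genes of the same abundance, whose median was 0.09. Under the keratin scaling 4 mitochondrial intervals lay above equality and 60 below. That scaling moved the median of all measured genes to -0.78. The shares of all genes with intervals above or below equality were not computed for it, so these 2 counts have no background.

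**Figure D1:**
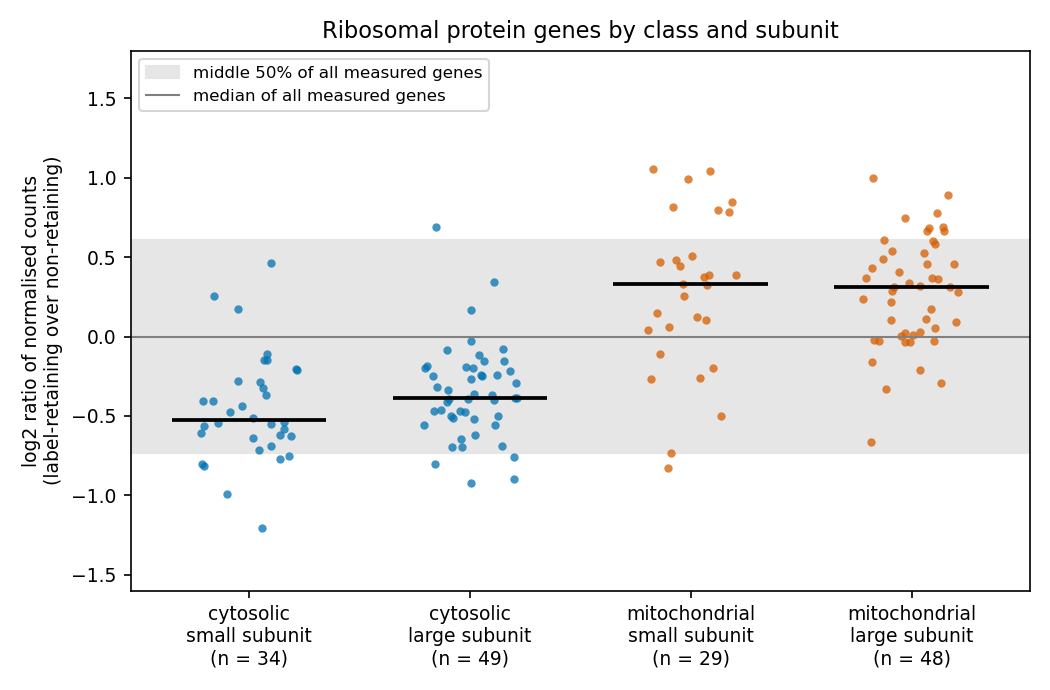
Log2 ratio of normalised counts (label-retaining over non-retaining, vertical axis) for each measured ribosomal protein gene, by class and subunit. Points are genes, black bars are medians, and the grey band is the middle 50% of all measured genes. Most cytosolic points lie below the grey median line and most mitochondrial points above it, with medians of -0.53, -0.38, 0.33 and 0.31 from left to right. The positions against 0 depend on the scaling, and the mitochondrial medians fall below 0 when Krt8 and Krt18 are set equal.

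The difference between the classes does not depend on how the libraries are scaled, because both classes are shifted together. The mitochondrial median exceeded the cytosolic one by 0.72 on the log2 scale, a ratio of 1.65. Of the 77 mitochondrial members 73 lay above the cytosolic median, and of the 83 cytosolic members 80 lay below the mitochondrial median. Within the label-retaining library the mitochondrial class made up 4.47% of the reads of both classes (95% counting interval 4.44% to 4.51%). In the non-retaining library its share was 2.80% (2.77% to 2.82%). There were thus 21.4 cytosolic reads per mitochondrial read in label-retaining cells and 34.8 in non-retaining cells.

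Per kb of annotated exon the classes were far apart in both libraries. The length used is that of all annotated exons of a gene, not of 1 message, and it divides both libraries alike. The median level was 7041 normalised counts per kb of exon for cytosolic members in label-retaining cells and 10380 in non-retaining cells, and 308 against 242 for mitochondrial members. The order of members within each class was nearly the same in both libraries, with a Spearman rank correlation of levels per kb of 0.98 over 83 cytosolic and 0.96 over 77 mitochondrial genes. Within the cytosolic class Rplp1, Rps15, Rps3a1 and Rpl4 had the highest levels per kb, and within the mitochondrial class Mrpl54, Mrps21, Mrpl24 and Mrps6 did.

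**Figure D2:**
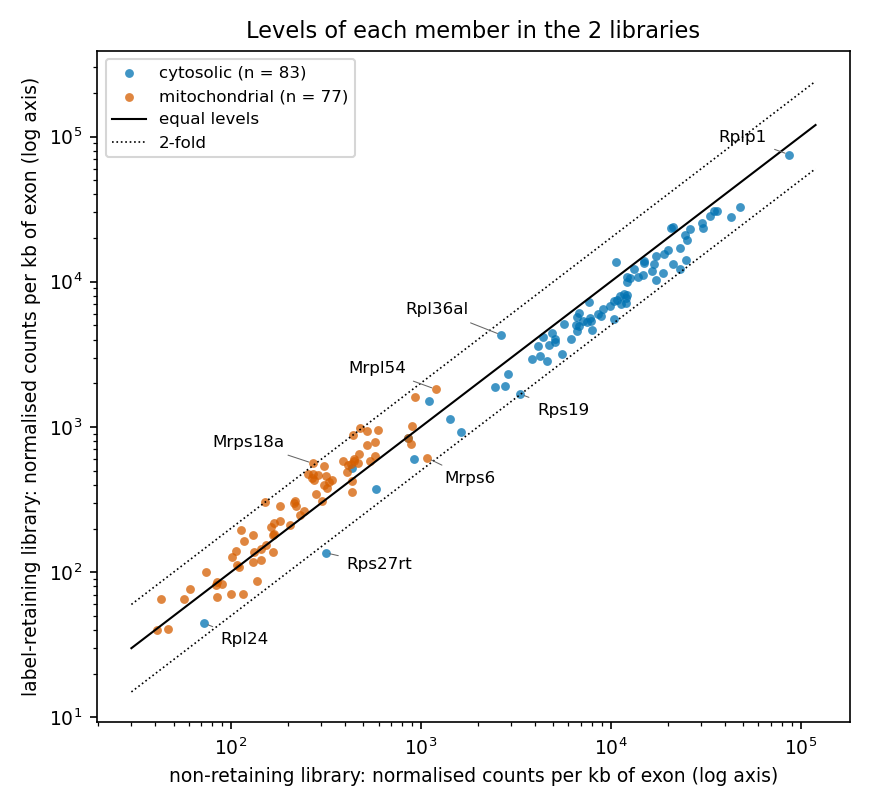
Level of each measured member in the non-retaining (horizontal) and label-retaining (vertical) library, in normalised counts per kb of exon on log axes. The solid line marks equal levels and the dotted lines 2-fold. Cytosolic members, in blue, lie mostly just below the line of equality, and mitochondrial members, in orange, lie mostly above it under this scaling but not when Krt8 and Krt18 are set equal.

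In the cytosolic class the small subunit stood lower than the large one. The 34 small-subunit genes had a median log2 ratio of -0.53, with 13 at least 1.5-fold lower and 31 intervals below equality. The 49 measured large-subunit genes had a median of -0.38, with 9 at least 1.5-fold lower and 45 intervals below. Of all measured genes 26.8% were at least 1.5-fold lower and 38.5% had intervals below equality. In the mitochondrial class the medians were 0.33 for 29 small-subunit and 0.31 for 48 large-subunit genes. With 1 library per group the difference between subunits was not tested.

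Reads are given from here on with the label-retaining library first and the non-retaining library after it. The member with the lowest ratio was Rps27rt, with 51 and 130 reads and a log2 ratio of -1.21 (interval -1.71 to -0.74). Its coding sequence is identical to that of Rps27 at 252 of 252 bases, so that reads of the parent gene and of this intronless copy on chromosome 9 could have been split in counting. Rps27 itself, on chromosome 3, had 14790 and 28512 reads and a log2 ratio of -0.81 (-0.84 to -0.78). Both were lower in the label-retaining library, and the parent alone carries nearly all of the reads.

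Rps19 (ENSMUSG00000040952.15, chr7:24884371-24889806, + strand), a small-subunit protein needed to mature the small subunit's RNA, had the lowest ratio of the members without such a copy. It had 7910 and 17240 reads, a log2 ratio of -0.99 (-1.03 to -0.95), just short of 2-fold. Rpl8 (chr15:76904078-76906314, + strand), which sits near the peptidyl transferase centre, followed with 16566 and 34505 reads and -0.93. Rpl13 had 14498 and 29610 reads and a log2 ratio of -0.90. For each of these genes the counting interval was narrow and far from equality, and the levels in the label-retaining library were little more than 50% of those in the other.

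Rps15a (5840 and 11194 reads, log2 ratio -0.81), Rpl9 (9805 and 18754, -0.80) and Rps3 (20875 and 39141, -0.77) completed the lowest members with Rpl7 (19267 and 35820, -0.76). Rps3 lies at the mRNA entry of the small subunit. Rpl24 had a log2 ratio of -0.69 from only 46 and 82 reads, and its exons overlap those of Gm28037 on the same strand, so its reads may have been split.

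Only 6 cytosolic members had an interval above equality under the deposited scaling, where 38.2% of all measured genes did. With Krt8 and Krt18 set equal 0 did, and the median of all measured genes was then -0.78. Rpl36al (ENSMUSG00000049751.6, chr12:69182731-69184083, - strand), the autosomal copy of the X-linked Rpl36a, was highest, with 5828 and 3956 reads and a log2 ratio of 0.69 (0.63 to 0.75). Its exons overlap those of Gm49383 on the same strand. Rps27l, a copy of Rps27 known as a target of p53, had 1243 and 987 reads and 0.47 (0.34 to 0.59). Rpl10 (chrX:74270812-74273135, + strand), a protein that joins the large subunit last, had 27944 and 24170 reads and 0.34 (0.32 to 0.37).

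The other members at the upper end had small ratios. Rps19bp1, a binding partner of Rps19 rather than a ribosomal protein, had 564 and 519 reads and a log2 ratio of 0.25. Rps26, at the mRNA exit of the small subunit, had 36119 and 35100 reads and 0.17. Rpl41, an exceptionally small basic protein, had 27896 and 27216 reads and 0.17. Rpl37, next below equality after Rpl7l1, had 12331 and 14308 reads and -0.08. Scaling by total reads lowers every ratio by 0.20, and 3 cytosolic intervals then remained above equality. Shares of the class's own reads need no scaling: Rps26 made up 2.70% of cytosolic class reads in label-retaining cells and 1.81% in non-retaining cells, Rpl10 2.09% and 1.25%, and Rps19 0.591% and 0.890%.

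**Figure D3:**
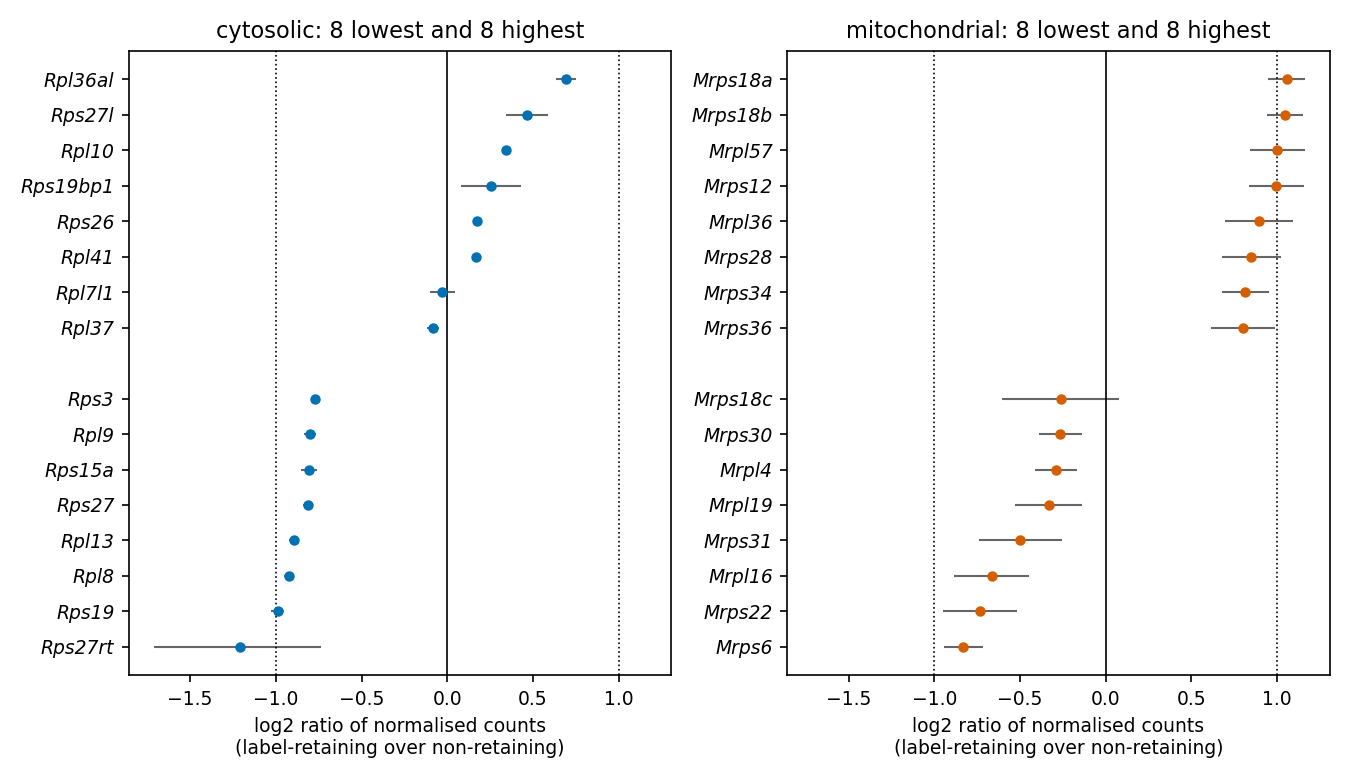
The 8 lowest and 8 highest measured members of each class, by log2 ratio of normalised counts (label-retaining over non-retaining, horizontal axis). Bars are 95% counting intervals, and dotted lines mark 2-fold. Rps27rt passes the lower line, while Mrps18a, Mrps18b and Mrpl57 reach the upper one under the deposited scaling. All 8 highest mitochondrial members lie farther to the right than the highest cytosolic member, Rpl36al.

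Paralogue pairs give a comparison inside each library that is also free of scaling. These shares were added after the values of the genes had been seen. Rpl36a and Rpl36al encode nearly the same protein, and their coding sequences are identical at 279 of 318 bases (87.7%), with a longest identical stretch of 24 bases. The first 120 coding bases of each, from GENCODE M21 on GRCm38, are printed to show how far apart the differing bases lie. Capitals mark bases that differ, and Rpl36a lies at chrX:134585654-134588062 on the + strand.
Rpl36a: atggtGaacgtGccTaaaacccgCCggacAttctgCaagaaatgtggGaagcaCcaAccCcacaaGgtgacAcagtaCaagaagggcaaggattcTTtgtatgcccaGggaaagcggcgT
Rpl36al: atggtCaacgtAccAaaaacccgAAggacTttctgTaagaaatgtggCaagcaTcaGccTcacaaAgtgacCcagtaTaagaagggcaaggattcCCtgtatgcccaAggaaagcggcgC

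Rpl36a had 6701 and 9270 reads and a log2 ratio of -0.33 (-0.38 to -0.29). Rpl36al thus made up 46.5% of the pair's reads in the label-retaining library (45.6% to 47.4%) and 29.9% in the non-retaining library (29.1% to 30.7%). The intervals do not overlap. Rps27l made up 7.75% of the reads of Rps27 and Rps27l in label-retaining cells and 3.35% in non-retaining cells. Rpl7l1 had 2951 and 3302 reads and a log2 ratio of -0.03 with an interval across equality, and its share with Rpl7 was 13.3% and 8.44%. Rpl22l1, a copy of Rpl22, went the other way, with 744 and 1278 reads, a log2 ratio of -0.65 and a share of 12.0% and 14%. The coding identity of these pairs was 75% for Rps27 and Rps27l, 62.6% for Rpl7 and Rpl7l1 and 70.2% for Rpl22 and Rpl22l1. Without the copies (Rpl3l, Rpl7l1, Rpl22l1, Rpl36al, Rps27l and Rps27rt) and Rps19bp1, but with their parent genes, the remaining 77 cytosolic members had a median of -0.41, with 74 intervals below equality and 3 above.

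The factor-binding stalk and the partners of the small ribosomal RNA that Rpl5 and Rpl11 carry were lower to differing degrees. Rplp0, the base of the stalk, had 47037 and 61193 reads and a log2 ratio of -0.25. Rplp1, with the highest level per kb of any member (74998 and 87070 normalised counts per kb), had 37503 and 47763 reads and -0.22. Rplp2, with which Rplp1 pairs, was lower still at 10905 and 17042 reads and -0.51.

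Rpl5 had 19347 and 29307 reads and a log2 ratio of -0.47, while Rpl11 had 16590 and 20215 reads and -0.15. These 2 proteins bind Mdm2 when ribosome assembly is disturbed. Rpsa, also known as a laminin receptor, had 32694 and 60344 reads and -0.75. Rps6, the substrate of the S6 kinases, had 27049 and 40244 reads and -0.44, and Rpl23a, at the exit of the peptide tunnel, had 25866 and 32592 reads and -0.20. All 8 genes of this list had intervals below equality, where 38.5% of measured genes did, with a median of -0.34. In the cytosolic class that they belong to, 91.6% of intervals lay below equality and the median was -0.40.

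The genes mutated in Diamond-Blackfan anaemia, an inherited failure of red cell production, were examined as a list of 14. Of these 13 had intervals below equality and 1 above, 4 were at least 1.5-fold lower (Rps19, Rpl18, Rps24 and Rpl35a), and the median was -0.44, near that of the class. Of all measured genes, 38.5% had intervals below equality and 26.8% were 1.5-fold lower. Rpl18 had 11500 and 20468 reads and a log2 ratio of -0.70, Rps24 25175 and 42656 reads and -0.63, and Rpl35a 2115 and 3566 reads and -0.62. The exception was Rps26. The other members lay between these values and -0.15 for Rpl11, so the list was spread across the class.

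Some features of the cytosolic genes could be compared with their ratios. Introns or exons of 30 members hold small nucleolar RNAs; these hosts had a median of -0.46, and the 53 other measured members -0.40. Members with no exon overlapping another gene (44) had a median of -0.42 and those with an overlap (39) -0.40. The 32 members with a pyrimidine run at the start had a median of -0.41, ranging from -0.90 to 0.47, and the 31 measured members with a matched promoter and no run had -0.40. In the windows printed above, Rps27 and Rps15a carry the run among the lowest members and Rps26 carries it among the highest.

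In the mitochondrial class the highest members came from both subunits. Mrps18a (ENSMUSG00000023967.8, chr17:46110986-46128910, + strand), of the small subunit, had 2078 and 1097 reads and a log2 ratio of 1.05 (0.95 to 1.16). Mrps18b (chr17:35910379-35916389, - strand) had 2073 and 1102 reads and 1.04 (0.94 to 1.15). Mrps18c, the last of these 3 relatives of a single bacterial protein, had 130 and 171 reads and -0.26 with an interval across equality (-0.60 to 0.08). Of the reads of the 3 genes, Mrps18c took 3.04% in label-retaining cells (2.54% to 3.60%) and 7.22% in non-retaining cells (6.21% to 8.33%). The coding sequences of the 3 genes are 59.6% to 65.1% identical, with no identical stretch longer than 7 bases. Exons of Mrps18b overlap those of Gm16279 on the opposite strand, and exons of Mrps18c overlap those of Gm43511 on the same strand. The values of Mrps18b and Mrps18c thus depend on how shared reads were counted.

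Mrpl57 (chr14:57826234-57829296, + strand), of the large subunit, had 898 and 492 reads and a log2 ratio of 1.001 (0.84 to 1.16), just past the 2-fold line. Mrps12, whose bacterial relative lies at the decoding centre, had 916 and 504 reads and 0.99 (0.84 to 1.15), just under the 2-fold line. Mrpl36 had 552 and 326 reads and 0.89, Mrps28 734 and 447 reads and 0.85, and Mrps34 1123 and 700 reads and 0.81. Mrps36, now regarded as a subunit of a mitochondrial dehydrogenase complex, had 602 and 379 reads and 0.80. Exons of Mrpl36 overlap those of Ndufs6 on the opposite strand, and those of Mrps34 overlap Nme3 and Mapk8ip3, so their values depend on how shared reads were counted.

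Members with the highest level per kb of annotated exon or the most reads had ratios that differed widely. Mrpl54, with the highest level per kb of its class (1819 and 1201 normalised counts per kb), had 1504 and 1089 reads and a log2 ratio of 0.60. Mrps21 had 1191 and 757 reads and 0.79. Mrpl24, with the most reads, had 2294 and 2232 and 0.17.

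Members with known roles around the active sites and the membrane had differing ratios. The stalk protein Mrpl10 had 1636 and 1119 reads and a log2 ratio of 0.68, while its partner Mrpl12, which also binds the mitochondrial RNA polymerase, had 1289 and 1441 reads and -0.03 with an interval across equality. Mrpl58, a peptidyl-tRNA hydrolase built into the ribosome, had 757 and 669 reads and 0.31. Mrpl45, which anchors the ribosome at the inner membrane, had 552 and 583 reads and 0.05, again across equality. Of the 13 members on this list of roles, 5 had intervals above equality (38.5%), 2 below (15.4%) and 6 across, with a median of 0.06. Above equality this is near the 38.2% of all measured genes. Mrps16 (398 and 418 reads, 0.06), Mrpl41 (518 and 529, 0.10) and Mrpl44 (507 and 548, 0.02) were among those across equality.

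The lowest members were few. Mrps6 had 938 and 1830 reads and a log2 ratio of -0.83 (-0.95 to -0.72); its exons overlap those of Slc5a3 and Gm49711 on the same strand, and reads of Slc5a3, a myo-inositol transporter, could be counted with it. Mrps22 had 281 and 512 reads and -0.73 (-0.95 to -0.52), and Mrpl16 had 275 and 479 reads and -0.67 (-0.89 to -0.45), with no overlapping exon for either. Mrps31 (233 and 361 reads, -0.50), Mrpl19 (367 and 507, -0.33), Mrpl4 (936 and 1256, -0.29) and Mrps30 (925 and 1219, -0.26) followed. Mrpl3, in which mutations cause a heart muscle disease, had 780 and 955 reads and -0.16. The 45 mitochondrial members without an exonic overlap had a median of 0.37 and the 32 with one 0.30. Median ratios were also set against promoter motifs in both classes, with no test. Mitochondrial members with CCGGAAG (25) had a median of 0.33 and those without (43) 0.32. Those with the NRF1 pattern (13) had 0.10 and those without (55) 0.34. Cytosolic members with CCGGAAG (25) had -0.37 and those without (38) -0.48. The 6 with the NRF1 pattern had -0.56 against -0.40 in the 57 without. For AAGATGGC the cytosolic medians were -0.56 (6 with) and -0.40 (57 without), and the mitochondrial ones 0.33 (12) and 0.32 (56). For TATAAA they were -0.39 (7) and -0.41 (56), and 0.32 (5) and 0.32 (63). Mitochondrial members with a pyrimidine run (16) had 0.30 and those without (52) 0.33.

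Ribosomal proteins that the naming rule misses were close to their class. For the cytosolic ribosome, Rack1, a scaffold on the small subunit, had 25983 and 40400 reads and a log2 ratio of -0.50. Fau, which encodes a small-subunit protein fused to a ubiquitin-like one, had 12160 and 14495 reads and -0.12. For the mitochondrial ribosome, Chchd1 (474 and 348 reads, 0.58) and Aurkaip1 (1783 and 1471, 0.41) were higher under the deposited scaling, Dap3 (1074 and 1150, 0.03) lay across equality and Ptcd3 (1468 and 1819, -0.18) was lower.

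Counts for the lists that follow stand beside those of all measured genes, of which 38.2% had intervals above equality and 38.5% below, while 14.5% were 2-fold higher and 19.4% lower. The counts are for the deposited scaling. With Krt8 and Krt18 set equal every ratio is shifted by -0.76, which puts the median of each of these lists below 0.

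Of 63 measured factors that build cytosolic ribosomes, 40 had intervals below equality (63.5%) and 14 above (22.2%), and the median was -0.27. At 2-fold 2 were lower and 0 higher, under the background in both directions. Dkc1, the pseudouridine synthase of the box H/ACA particles, had 744 and 1746 reads and a log2 ratio of -1.10. Rrp1b had 983 and 2237 reads and -1.05, and Npm1, the abundant nucleolar chaperone, had 14525 and 27710 reads and -0.80. At the other end Sbds, which releases a factor from the maturing large subunit, had 7496 and 4555 reads and 0.85, and Tsr1 had 6921 and 5257 reads and 0.53.

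The machinery of RNA polymerase I, which transcribes ribosomal RNA, was centred at 0.00 over 20 genes, with 5 intervals above equality (25%) and 7 below (35%). Ubtf, its most abundant member, had 5122 and 5811 reads and a log2 ratio of -0.05, with an interval across equality. Polr2e, a subunit common to all nuclear RNA polymerases, was highest at 0.69 and Taf1d lowest at -0.52.

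The translation factor lists had medians nearer to 0 than the cytosolic class. The 39 initiation factors had a median of 0.07, with 20 intervals above equality (51.3%) and 12 below (30.8%). Eif2b4 had 1787 and 931 reads and a log2 ratio of 1.07, the single one past 2-fold, and Eif4g3 had 8863 and 5497 reads and 0.82. Eif4a1, the helicase that unwinds message leaders, had 33444 and 55354 reads and -0.59. Elongation and termination factors (14) had a median of -0.20, with 3 intervals above (21.4%) and 9 below (64.3%). Their most abundant member, Eef1a1, had 396316 and 423795 reads and 0.04, and Eef2 had 180052 and 189661 reads and 0.06. Eef1a1 and Eef2 carry a terminal oligopyrimidine tract like the ribosomal proteins. Eef1g had 13798 and 23276 reads and -0.62, and Nacad was the lowest with 36 and 125 reads and -1.65.

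Among 21 regulators of ribosome synthesis and growth, 14 intervals lay above equality (66.7%) and 5 below (23.8%), and the median was 0.29 under the deposited scaling. Deptor, an inhibitor of the mTOR kinase, had 3687 and 1537 reads and a log2 ratio of 1.40, and Rps6ka2, a ribosomal S6 kinase, had 1734 and 743 reads and 1.36. Trp53 had 1648 and 3675 reads and -1.02. Myc, which drives ribosomal genes in many cells, was the most abundant with 19814 and 18475 reads and 0.23.

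On the mitochondrial side, the 24 assembly factors were near the background, with a median of 0.08, 11 intervals above equality (45.8%) and 8 below (33.3%), and Mpv17l2 (1242 and 568 reads, 1.26) and Mtg1 (270 and 146, 1.02) past 2-fold. C1qbp, a matrix chaperone, was lowest with 924 and 1727 reads and a log2 ratio of -0.77. The 15 mitochondrial translation factors had a median of 0.18, with 7 above (46.7%) and 3 below (20%). Tsfm, an elongation factor, had 259 and 184 reads and 0.63, and Gfm1, the translocase, had 1161 and 1792 reads and -0.49.

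Genes for mitochondrial DNA upkeep and transcription (15) had a median of -0.10, with 7 above and 7 below (46.7% each). Twnk, the mitochondrial DNA helicase, had 1357 and 667 reads and a log2 ratio of 1.16, whereas Gabpb1, a subunit of an ETS-family factor, had 1130 and 2489 reads and -1.01. Ppargc1a, a coactivator of mitochondrial genes, had 319 and 599 reads and -0.77, and its relative Pprc1 had 5556 and 4711 reads and 0.37.

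Nuclear-encoded subunits of oxidative phosphorylation, the complexes that mitochondrial ribosomes help to supply, were compared as a list of 77 that was chosen after the data had been seen. Their median was 0.25 under the deposited scaling, with 58 intervals above equality (75.3%) and 5 below (6.49%), which places the list near the mitochondrial ribosomal proteins. Ndufa1 had 4891 and 2013 reads and a log2 ratio of 1.41, and Atp5b, the most abundant, had 34741 and 38451 reads and -0.01. Ndufa4l2 had 6 and 103 reads and Cox6b2 14 and 69.

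**Figure D4:**
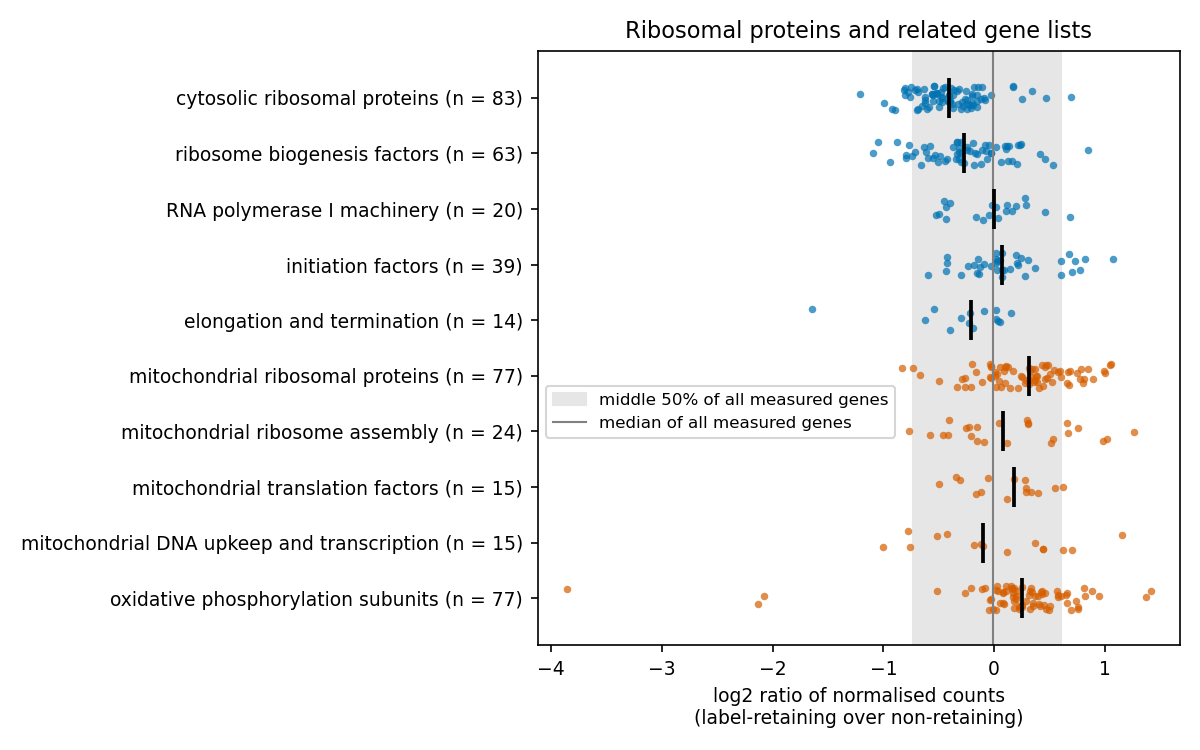
Log2 ratio of normalised counts (label-retaining over non-retaining, horizontal axis) for the 2 ribosomal protein classes and the gene lists around them. Points are measured genes, black bars are medians, blue marks cytosolic and orange mitochondrial lists, and the grey band is the middle 50% of all measured genes. Cytosolic ribosomal proteins have the lowest median (-0.40), followed by ribosome biogenesis factors (-0.27), and mitochondrial ribosomal proteins the highest (0.32). The order of the lists does not depend on the scaling, but the lists with positive medians fall below 0 when Krt8 and Krt18 are set equal.

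The scaling sets where the classes lie against 0. Scaling by total reads gave medians of -0.61 and 0.12, and setting Krt8 and Krt18 equal gave -1.17 and -0.44, while the median of all measured genes moved to -0.21 and -0.78. Relative to the median of all genes, the cytosolic class stayed between -0.40 and -0.38 and the mitochondrial class between 0.32 and 0.34. Among all measured genes 2483 were 2-fold higher and 3330 lower under the deposited scaling, 1917 and 4001 under total reads, and 923 and 6984 under the keratin scaling.

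**Figure D5:**
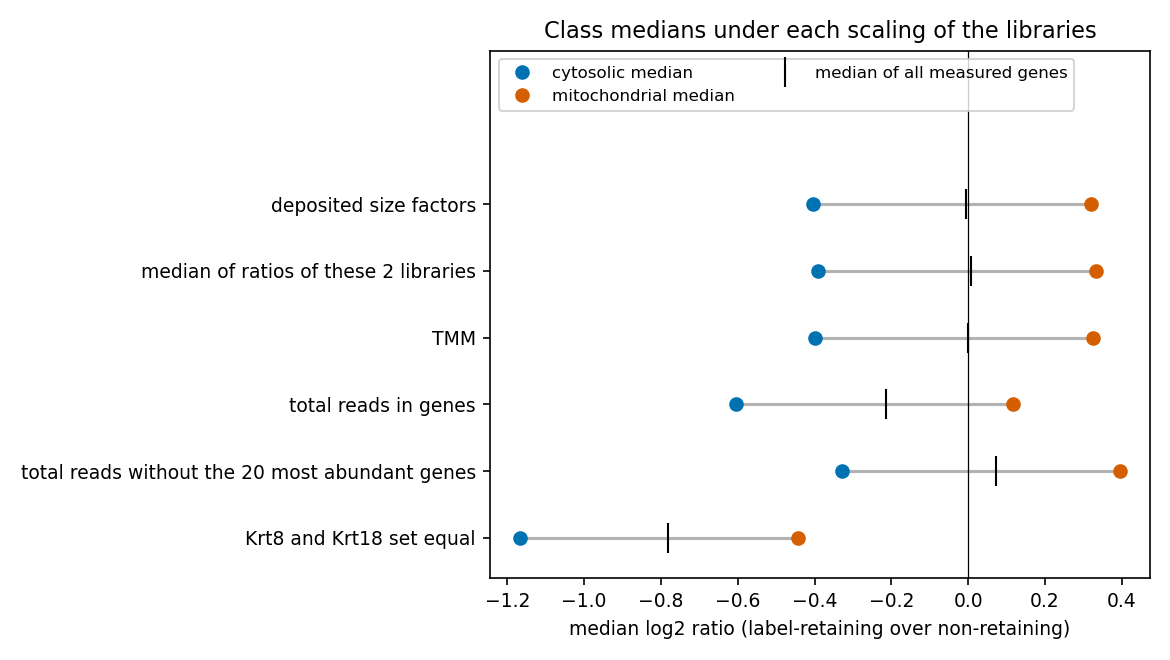
Median log2 ratio (label-retaining over non-retaining, horizontal axis) of the cytosolic class (blue), the mitochondrial class (orange) and all measured genes (black tick) under each of 6 scalings of the libraries. The grey line joins the class medians and keeps a length of 0.72 throughout. The mitochondrial median lies above 0 under 5 scalings and below it, at -0.44, when Krt8 and Krt18 are set equal.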

How the data were processed

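The deposited table gave 1 column per library, and its values were a normalised signal, made by the authors from read counts per gene through division by a library-wide size factor. In both columns 100% of values came out as whole reads (within 1e-06), with size factors of 1.00 and 1.10, so reads were recovered from them. Listed in the submitters' processing notes are DESeq 1.16.0, HTSeq 0.6.0, Bowtie2 2.1.0, TopHat2 2.0.10, CASAVA 1.8.2 and the mm10 build. Neither their roles nor the annotation, the strand setting or the handling of reads shared by near-identical genes is given in the sources used here. RNA was extracted with Qiagen RNeasy kits and sequenced from stranded total RNA (Illumina TruSeq) libraries, per the labels' protocols.

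Symbols and exons came from GENCODE M21, which named 18634 of 18724 identifiers. Log2 ratios used a pseudocount of 0.5 normalised counts. A gene was called at 2-fold if its ratio reached that size and its 95% Clopper-Pearson interval excluded equality; reads are not independent molecules, so intervals cover counting error only. No count model was tested, because each group had 1 library; edgeR 4.0.16 gave TMM factors only. Levels per kb divide by the summed exon length. Calculations used Python 3.11.15, numpy 2.4.6, scipy 1.17.1, pandas 2.3.3 and R 4.3.3 and were tested on simulated data.

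Members and lists were chosen with earlier results of these data known. Named members are the 8 highest and 8 lowest of each class, the 4 with the highest level per kb, every 2-fold call, and those on lists of paralogues, stalk and exit proteins, Diamond-Blackfan genes and mitochondrial roles. From other lists the highest and lowest 2 and the most abundant gene were eligible. Alternatives covered the scaling, the pseudocount, the minimum count, the fold threshold and leaving out gene copies (parent genes kept). Rpl10l, Rpl39l and Mrpl53 were not analysed here.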

Additional observations from a re-analysis of the deposited data

How the results depend on the processing

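The difference of the class medians stayed at 0.72 under all 6 scalings. At a 1.5-fold threshold the cytosolic calls were 1 higher and 22 lower and the mitochondrial calls 17 higher and 3 lower. Of all measured genes 24.2% were 1.5-fold higher and 26.8% lower. Scaling by total reads gave 7 cytosolic genes lower, with a median of -0.61, and 0 mitochondrial genes higher and 1 lower, with a median of 0.12. Under that scaling 1917 of 17204 measured genes were 2-fold higher and 4001 lower. Setting Krt8 and Krt18 equal gave 61 cytosolic genes lower (median -1.17), 0 mitochondrial genes higher and 8 lower, and reversed the mitochondrial median to -0.44. With the keratins equal, 923 of 17256 measured genes were 2-fold higher and 6984 lower. Total reads without the 20 most abundant genes gave a cytosolic median of -0.33. Without the copies and non-ribosomal names, 0 cytosolic genes were 2-fold lower. These changes follow from the shift of all ratios, the threshold or the genes left out. The 57 other values kept their direction and moved by less than the limit set for a change. No paired analysis was possible because each group had 1 library, and for the same reason no library could be left out. Counting error limits single mitochondrial genes to about 0.15 on the log2 scale, and the spread between animals is not known.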

Other observations

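Pseudogenes of cytosolic ribosomal proteins had rows of their own in the table. The 48 rows whose symbols carry the -ps mark took 0.0291% of all label-retaining reads and 0.0467% of all non-retaining reads. Of the 41 measured, 17 had intervals below equality (41.5%), 2 above and 22 across. That share below equality is near the 38.5% of all measured genes, while the cytosolic class had 91.6%. Above equality the share was 4.88%, against 38.2% of all measured genes. The 41 rows held 14748 and 22583 reads, against 1338274 and 1937605 in the class, and fewer reads give wider intervals. Their shares are therefore not directly comparable with those of the class. The median log2 ratio of the 41 rows was -0.36, against -0.40 in the cytosolic class. Rps2-ps13 had the most reads, 4355 and 8045, with a log2 ratio of -0.75. Rpl10-ps3, which GENCODE M21 lists as protein coding like Rpl9-ps6 and Rps12-ps3, had 1242 and 965 reads and 0.50, on the same side as its parent Rpl10. Reads of a pseudogene and its parent may have been exchanged in counting, and this was not tested. These rows were named after their values had been seen.

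Within both classes, members with longer annotated exons had lower ratios. The Spearman rank correlation of log2 ratio with exon length was -0.28 over 83 cytosolic and -0.39 over 77 mitochondrial genes, and -0.04 over the 17111 measured genes with a length. With mean count the correlation of the ratio was -0.05, 0.12 and 0.07 in the same order. With the level per kb of exon, which divides by that length, it was 0.13 in the cytosolic and 0.41 in the mitochondrial class. These are correlations across genes of the same pair of libraries, and genes are not independent replicates. Among other genes in the exon length range of each class, the median was 0.05 for the cytosolic range (6466 genes) and 0.02 for the mitochondrial range (11908 genes).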
